A study of Homo sapiens with 33 samples.

Results

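The genes described here are 10 factors and co-receptors of blood vessel growth, ESM1, VEGFA, VEGFB, VEGFC, PGF, ANGPTL4, ADM, NRP1, NRP2 and PDGFA, taken by symbol from the 56470 gene symbols of a bulk RNA-seq count table. ESM1 was chosen by its fall in SCC6, measured as the log2 fold change of cetuximab over PBS. At -7.80 this was the lowest among the 9846 genes of that line whose mean log2 CPM reached 3, with MMP1 next at -7.05, while over all 17387 genes tested IL1RL1 was lower still at -8.30. The change of ESM1 with treatment in SCC6 is therefore given as a description, without a test. The other 9 genes entered by name.

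Secreted VEGF ligands bind the receptor tyrosine kinases FLT1, KDR and FLT4 on endothelial cells, and the neuropilins NRP1 and NRP2 act as co-receptors that hold the ligand and also bind class 3 semaphorins. In carcinoma cells, signalling from EGFR through ERK and transcription factors such as AP-1 is a known source of VEGFA, and hypoxia is another, through HIF. ESM1, also called endocan, is a secreted proteoglycan known from the tip cells of sprouting vessels and also produced by some carcinomas.

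SCC1 (UM-SCC-1), SCC6 (UM-SCC-6) and SCC25 are established head and neck squamous cell carcinoma (HNSCC) lines. Each was given 100 nM cetuximab, an antibody that blocks ligand binding to EGFR, or PBS as the untreated control, starting a day after seeding, and RNA was collected daily. PBS libraries cover day 0 to day 5 and cetuximab libraries day 1 to day 5, 33 in all, with 1 library for each line, treatment and day. No genetic change was made in any group, and the medium held hydrocortisone for SCC1 and SCC25, while the labels name none for SCC6. Since a day has 1 library, the 5 days stand in for replicates, and p-values set a difference against the spread between these libraries. The labels name no replicate cultures, so the p-values do not speak for a repeat of the experiment. For cetuximab-treated SCC6 the labels give day 2 to a pair of libraries, called 2a and 2b here, and day 1 to none.

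Total counts ranged from 28508758 to 80727478 per library, and levels are given as CPM, counts relative to the library total, scaled by TMM over all 33 libraries. In SCC6 the flow cells named in the labels fall unevenly over the days: PBS of days 0 and 1 ran on flow cell C, PBS of days 2 to 5 with cetuximab libraries 2a, 2b and 3 on D, and cetuximab of days 4 and 5 on E. The PBS library of day 1 stood apart from those of days 2 to 5, and the cetuximab libraries of days 4 and 5 from 2a, 2b and 3, so that the SCC6 treatment changes are also given within flow cell D, which leaves them out. In SCC1, flow cell C held all cetuximab libraries with PBS of day 5, and in SCC25 flow cell A held all PBS libraries with cetuximab of days 1 and 2. EGFR itself, the target of the antibody, was higher with cetuximab in SCC1 (log2 fold change 0.58 ± 0.07 SE, edgeR adjusted p = 5.21e-05) and was not called in SCC6 (0.09, adjusted p = 0.464) or SCC25 (0.09, adjusted p = 0.145).

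The cultures hold no endothelial compartment by the labels, and the markers bear on that. All 8 squamous epithelial markers exceeded 1 CPM in every library, and in SCC1 7 of the 8 were higher with cetuximab, their summed level going from 1622 to 2984 CPM with PBS to 6794 to 11740 CPM (SCC6 1170 to 3553 against 1751 to 2717 CPM, SCC25 12350 to 18710 against 14770 to 18170 CPM). In SCC6 3 of the 8 were called higher and 2 lower, and in SCC25 2 higher and 1 lower. KRT5, KRT14 and DSG3 were low in SCC6, at 1.01 to 14.6 CPM over days 1 to 5. The summed level of 10 endothelial markers was 1.46 to 2.71 CPM with PBS and 1.855 to 2.27 CPM with cetuximab in SCC6. It was 9.65 to 25.8 against 11.7 to 19.8 CPM in SCC1 and 16.45 to 19.3 against 10.9 to 14.9 CPM in SCC25. KDR in SCC1 (5.52 to 17.3 CPM) and ERG in SCC25 (7.62 to 15.8 CPM) made up the largest shares. Of the endothelial markers tested, 3 of 7 were called lower with cetuximab in SCC1, 1 of 3 in SCC6 and 1 of 7 in SCC25, with 0 higher. CDH5, the endothelial cadherin, stayed at 0.587 CPM or below in every group. The summed level of 8 fibroblast markers was higher with cetuximab in each line, at 96.2 to 221 against 51.3 to 72.8 CPM in SCC1, 10.0 to 116 against 3.41 to 6.78 CPM in SCC6 and 291 to 458 against 177 to 227 CPM in SCC25. Not every fibroblast marker rose. Of those tested, SCC1 had 5 of 5 called higher, SCC6 2 of 3, and SCC25 5 of 8 with 1 lower. COL1A1 held the largest share in SCC6, with a mean of 3.00 CPM under PBS and 40.0 CPM under cetuximab. COL1A2 of SCC6 stayed low (0.29 and 0.24 CPM), while THY1 of SCC25 went from 2.51 to 1.59 CPM. These marker shifts ran beside the changes given below, and their part in them was not tested.

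Promoter windows of RefSeq (table build GRCh38.p14) were at hand for 8 of the 10 genes and were placed on GRCh37 by exact match, VEGFA and NRP1 having no entry. Shown as examples are those of ESM1 and ANGPTL4, which were lower with cetuximab in each line, and of ADM, which was higher in each line. PGF, also lower in each line, had 2 windows, of which 1 held GCGTG and the other neither form. Each run is the 250 bases before the start, 5′ to 3′ on the gene's strand, with capitals at ACGTG or GCGTG, the core letters that HIF binds, read on either strand. The windows lie at chr5:54281422-54281671 (minus strand) for ESM1, chr19:8428789-8429038 (plus strand) for ANGPTL4 and chr11:10326370-10326619 (plus strand) for ADM.
ESM1: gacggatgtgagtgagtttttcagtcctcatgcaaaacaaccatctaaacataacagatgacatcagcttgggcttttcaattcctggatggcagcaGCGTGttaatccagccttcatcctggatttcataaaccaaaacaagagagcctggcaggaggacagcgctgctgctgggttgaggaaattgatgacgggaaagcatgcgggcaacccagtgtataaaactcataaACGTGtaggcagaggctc
ANGPTL4: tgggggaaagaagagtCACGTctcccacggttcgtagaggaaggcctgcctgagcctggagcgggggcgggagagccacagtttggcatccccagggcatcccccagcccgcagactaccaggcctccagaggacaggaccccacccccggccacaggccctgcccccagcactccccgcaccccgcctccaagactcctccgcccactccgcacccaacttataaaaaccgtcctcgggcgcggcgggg
ADM: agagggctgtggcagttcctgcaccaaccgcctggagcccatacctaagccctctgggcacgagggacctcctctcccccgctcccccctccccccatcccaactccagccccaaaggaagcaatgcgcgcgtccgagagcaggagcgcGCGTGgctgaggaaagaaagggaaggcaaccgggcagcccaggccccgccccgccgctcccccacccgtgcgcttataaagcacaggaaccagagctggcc
ESM1 held ACGTG 18 bases and GCGTG 153 bases before the start, ANGPTL4 held ACGTG on the reverse strand at 234 bases, and ADM held GCGTG at 101 bases. Of 35116 windows in the table, 18.5% held ACGTG and 32.2% GCGTG. The AP-1 letters TGANTCA were found in 6.57% of all windows, the ETS letters CCGGAA in 14.5% and the TEAD letters GGAATG in 11.9%, and none of these 3 was in the windows shown. The capitals in a window do not overlap each other. These matches describe letters only.

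The first comparison asked which of the factors changed with EGFR blockade in each line over days 1 to 5. ESM1, ANGPTL4 and PGF were lower with cetuximab in each line and ADM was higher in each, while VEGFC fell in SCC1 and rose in SCC6. In SCC1, 9 of the 10 genes passed the filter on low counts (NRP2 did not), and of the 8 besides ESM1, which passed through PBS alone and is described below without a test, 6 were called, 5 lower and 1 higher, beside 44.8% of the 17984 genes tested in that line (22.1% lower, 22.7% higher). In SCC6, leaving ESM1 aside, 6 of 9 were called, 3 in each direction, beside 30.1% of 17387 genes (14.6% lower, 15.6% higher). In SCC25, leaving ESM1 aside, VEGFA, PGF, ANGPTL4 and NRP2 were called lower and ADM higher, beside 18.3% of 19101 genes (9.50% lower, 8.80% higher). Values without overlap between the 5 cetuximab and the 5 PBS libraries were found, ESM1 left aside, for 6 genes in SCC1, beside 31.3% of all genes, and for 5 in SCC6, beside 19.1%. In SCC25 they were found for VEGFA, PGF and ANGPTL4, beside 14.7% of all genes. ESM1 passed the filter in SCC25 through its PBS libraries. The median log2 fold change over all genes tested was 0.02, 0.00 and 0.01. In bulk RNA, fewer cells that express a gene and less of its RNA per cell cannot be told apart.

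**Figure D1:**
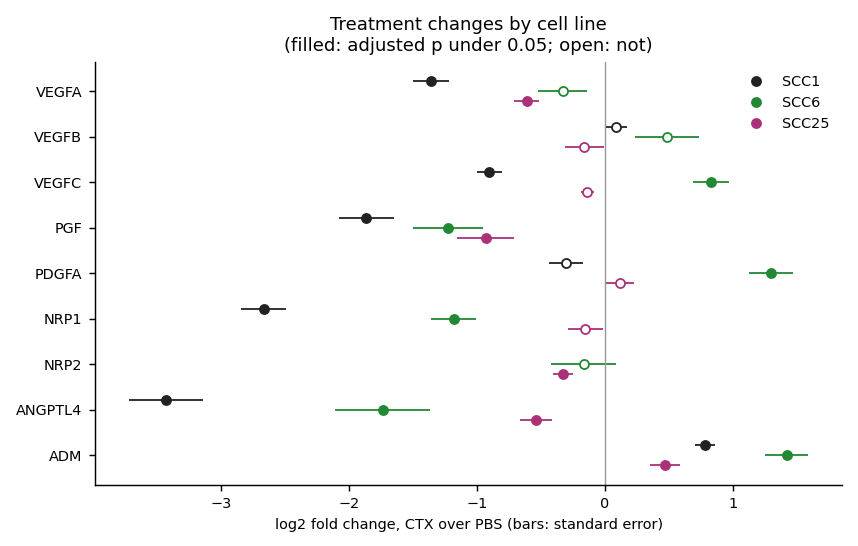
Log2 fold change of cetuximab over PBS (x axis) for 9 of the genes (y axis) in SCC1, SCC6 and SCC25, with bars for the standard error and filled points where the adjusted p was under 0.05. ANGPTL4 and PGF lie left of 0 and ADM right of 0 in each line, and VEGFC lies at -0.91 in SCC1 and 0.83 in SCC6. ESM1 is left out because no treatment test is given for it, and NRP2 was not tested in SCC1.

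The annotated span of ESM1 is chromosome 5, 54273695 to 54318499 (GRCh37, minus strand). A lncRNA on the same strand overlaps the 5′ end of this span from 54317127 on. The promoter window shown above lies inside the span, at 54281422 to 54281671, away from that lncRNA. ESM1 showed the widest swing. In SCC6, the PBS libraries of days 1 to 5 held 87.4, 103, 109, 53.0 and 27.2 CPM. The cetuximab libraries 2a, 2b, 3, 4 and 5 held 0.42, 0.41, 0.60, 0.24 and 0.17 CPM, or 12 to 23 counts each. Every cetuximab library lay far below every PBS library, and day by day the level was 158 to 252 times lower. The mean of the cetuximab libraries was 0.485% of the mean of PBS of days 1 to 5. Within flow cell D the log2 fold change was -7.25, beside -7.80 over all libraries.

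In SCC1 the ESM1 message was not found at all after treatment. PBS held 2.95, 9.95, 18.5, 13.45 and 10.4 CPM on days 1 to 5, from 116 to 880 counts, and all 5 cetuximab libraries held 0 counts. Against a floor of 3 counts over the group, ESM1 was at least 776-fold lower with cetuximab. It passed the filter only through PBS, so no test is given. SCC25 made little ESM1 to begin with, at 0.42, 0.34, 0.69, 0.50 and 0.34 CPM with PBS and 0.13, 0.12, 0.28, 0.15 and 0.24 CPM with cetuximab, 6 to 29 counts per library. Even so, no cetuximab library reached a PBS library, and the log2 fold change was -1.32 ± 0.30 (SE). ESM1 passed the filter in SCC25 through its PBS libraries, with 6 to 11 counts in the cetuximab libraries, so this change is also given without a test. Whether the fall differed between lines was not tested.

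**Figure D2:**
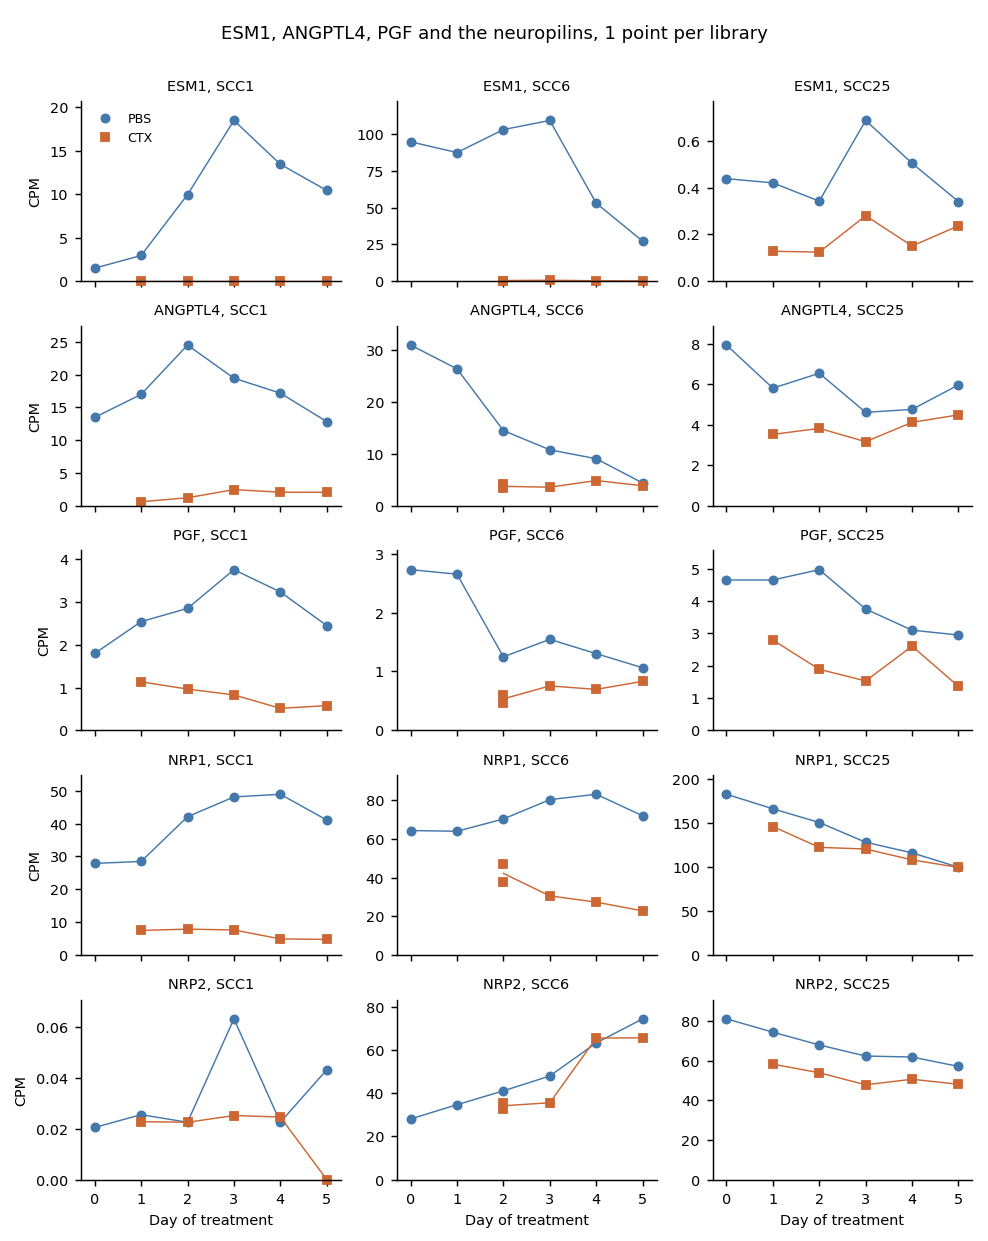
CPM (y axis) by day of treatment (x axis) of ESM1, ANGPTL4, PGF, NRP1 and NRP2 in the 3 lines, with circles for PBS, squares for cetuximab, 1 point per library and a line through the daily mean; each panel has its own y axis from 0. ESM1 with cetuximab lies on the floor in SCC1 and SCC6, where PBS peaks on day 3 at 18.5 and 109 CPM, and ANGPTL4 of SCC6 falls in PBS from 31.1 CPM on day 0 to 4.4 CPM on day 5, towards the cetuximab level.

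ANGPTL4 (chromosome 19, 8428173 to 8439254, plus strand), a secreted inhibitor of lipoprotein lipase that also acts on vessel permeability and is a target of both HIF and PPAR, fell in each line. In SCC1 it held 17.0, 24.5, 19.4, 17.2 and 12.8 CPM with PBS and 0.61, 1.21, 2.46, 2.06 and 2.05 CPM with cetuximab on days 1 to 5. The treated level was 3.61% of PBS on day 1 and 16.0% on day 5, and the groups did not overlap (log2 fold change -3.43 ± 0.29, adjusted p = 3.01e-06). In SCC6 the PBS libraries fell steadily, from 26.5 CPM on day 1 over 14.5, 10.8 and 9.09 to 4.4 CPM on day 5, while cetuximab stayed at 4.16, 3.34, 3.59, 4.87 and 3.86 CPM. The difference (log2 fold change -1.74 ± 0.37, adjusted p = 0.00481) was thus larger on the earlier days, and on day 5 cetuximab reached 87.7% of PBS. Within flow cell D it was -1.39 (adjusted p = 0.00995). SCC25 showed the smallest change, with PBS at 5.80, 6.53, 4.61, 4.75 and 5.96 CPM and cetuximab at 3.52, 3.82, 3.16, 4.11 and 4.48 CPM. These groups did not overlap either (log2 fold change -0.54 ± 0.13, adjusted p = 0.0133). The SCC25 call was lost with flow cell as a covariate (adjusted p = 0.0613) and held within flow cell A (adjusted p = 0.0403).

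VEGFA (chromosome 6, 43737921 to 43754224, plus strand), the main ligand of KDR, fell in SCC1 and SCC25. In SCC1 it went from 249, 332, 335, 333 and 273 CPM with PBS to 81.6, 123, 151, 127 and 107 CPM with cetuximab, without overlap (log2 fold change -1.36 ± 0.14, adjusted p = 1.21e-05). SCC25 held 252, 288, 347, 311 and 367 CPM with PBS and 178, 205, 214, 212 and 218 CPM with cetuximab, again without overlap (log2 fold change -0.61 ± 0.10, adjusted p = 0.00143). In SCC6 the groups overlapped: PBS held 237, 195, 236, 283 and 328 CPM and cetuximab 180, 123, 228, 242 and 257 CPM. The SCC6 difference (log2 fold change -0.33 ± 0.19) was not called (adjusted p = 0.22). It was called at -0.57 with flow cell as a covariate (adjusted p = 0.0472) and was not called at -0.56 within flow cell D (adjusted p = 0.0718). Antisense lncRNAs overlap VEGFA (43738166 to 43738353) and also VEGFC, NRP1 and NRP2, and whether the counting used the strand is not given in the sources used here.

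Among the other VEGF ligands, VEGFC was called in SCC1 and SCC6, PGF in each line and VEGFB in none. VEGFC (chromosome 4, 177604689 to 177714076, minus strand), the ligand of FLT4 and a growth factor of lymphatic vessels, moved in opposite directions in SCC1 and SCC6. In SCC1 it held 70.8, 80.01, 79.0, 87.3 and 83.8 CPM with PBS and 38.9, 42.4, 54.0, 42.0 and 35.2 CPM with cetuximab (log2 fold change -0.91 ± 0.10, adjusted p = 1.66e-05). In SCC6 the PBS libraries held 24.5, 23.3, 21.6, 19.3 and 19.7 CPM and the cetuximab libraries 45.8, 36.0, 48.3, 34.5 and 30.4 CPM (log2 fold change 0.83 ± 0.14, adjusted p = 0.00117), and within flow cell D the rise was 1.05 (adjusted p = 0.000175). In neither line did the groups overlap. SCC25, where VEGFC was highest, held 159 to 184 CPM with PBS and 148 to 169 CPM with cetuximab and was not called (log2 fold change -0.14 ± 0.05, adjusted p = 0.0871).

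PGF (chromosome 14, 75408537 to 75422329, minus strand), placental growth factor, a ligand of FLT1, was low in all lines and fell in each. It went from 2.45 to 3.76 CPM with PBS to 0.52 to 1.14 CPM with cetuximab in SCC1 (log2 fold change -1.87 ± 0.21, adjusted p = 2.34e-05), from 1.06 to 2.65 to 0.47 to 0.83 CPM in SCC6 (-1.23 ± 0.27, adjusted p = 0.00578) and from 2.95 to 4.97 to 1.36 to 2.79 CPM in SCC25 (-0.93 ± 0.22, adjusted p = 0.013). In no line did the groups overlap. Within flow cell D the SCC6 change was -1.08 (adjusted p = 0.0106). In SCC25 the call was lost with flow cell as a covariate (adjusted p = 0.144) and within flow cell A (adjusted p = 0.082). VEGFB (chromosome 11, 64002056 to 64006736, plus strand), another FLT1 ligand, held 17.6 to 24.3 CPM with PBS and 20.6 to 23.1 CPM with cetuximab in SCC1, and 40.3 to 45.0 against 24.2 to 49.2 CPM in SCC25, and was called in neither (adjusted p = 0.43 and 0.496). In SCC6 it held 20.7 CPM in PBS of day 1, on flow cell C, and 10.2 to 11.3 CPM in PBS of days 2 to 5, against 11.7 to 26.4 CPM with cetuximab. The SCC6 rise of 0.49 ± 0.25 (log2) was not called (adjusted p = 0.168), and was called at 0.74 without PBS of day 1 (adjusted p = 0.0173), at 0.75 with day as a block (adjusted p = 0.00539) and at 0.41 within flow cell D (adjusted p = 0.0263).

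PDGFA (chromosome 7, 536895 to 559933, minus strand) encodes a platelet-derived growth factor chain that recruits PDGFRA-bearing mesenchymal cells. It rose in SCC6, from 25.4, 21.9, 22.3, 21.6 and 21.9 CPM with PBS to 47.7, 35.2, 58.9, 65.5 and 74.0 CPM with cetuximab, without overlap (log2 fold change 1.30 ± 0.17, adjusted p = 0.000246). The libraries of days 4 and 5 were the highest of the cetuximab group, and within flow cell D, which leaves them out, the log2 fold change was 1.11 (adjusted p = 0.000394). The other lines showed no call: SCC1 held 16.7 to 28.6 CPM with PBS and 16.4 to 21.0 CPM with cetuximab, and SCC25 44.2 to 58.5 and 46.8 to 63.8 CPM. In SCC1 the difference of -0.30 ± 0.13 (log2; adjusted p = 0.0838) was called with day as a block (-0.28, adjusted p = 0.0175) and without PBS of day 5 (-0.41, adjusted p = 0.012). The sign turned with flow cell as a covariate (0.14) and within flow cell C (0.13), where PBS of day 5 is the only PBS library of SCC1.

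ADM (chromosome 11, 10326620 to 10328944, plus strand) encodes adrenomedullin, a vasodilator peptide that acts on endothelium through CALCRL and is a target of HIF. It was higher with cetuximab in each line. SCC6 showed the most marked rise, from 22.0, 22.7, 28, 32.2 and 30.8 CPM with PBS to 69.9, 47.8, 79.9, 89.7 and 81.03 CPM with cetuximab (log2 fold change 1.42 ± 0.17, adjusted p = 0.000129), with 1.21 within flow cell D (adjusted p = 0.000534). SCC1 rose from 14.1, 14.2, 12.7, 13.8 and 14.3 CPM to 22.2, 27.9, 21.5, 22.0 and 24.7 CPM (0.78 ± 0.08, adjusted p = 1.16e-05). Neither line showed overlap. In SCC25 the libraries overlapped, with 54.5, 66.0, 67.2, 67.2 and 85.3 CPM for PBS and 97.2, 108, 74.8, 91.6 and 101 CPM for cetuximab (0.47 ± 0.12, adjusted p = 0.0181), and only the cetuximab library of day 3 lay below the highest PBS library.

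**Figure D3:**
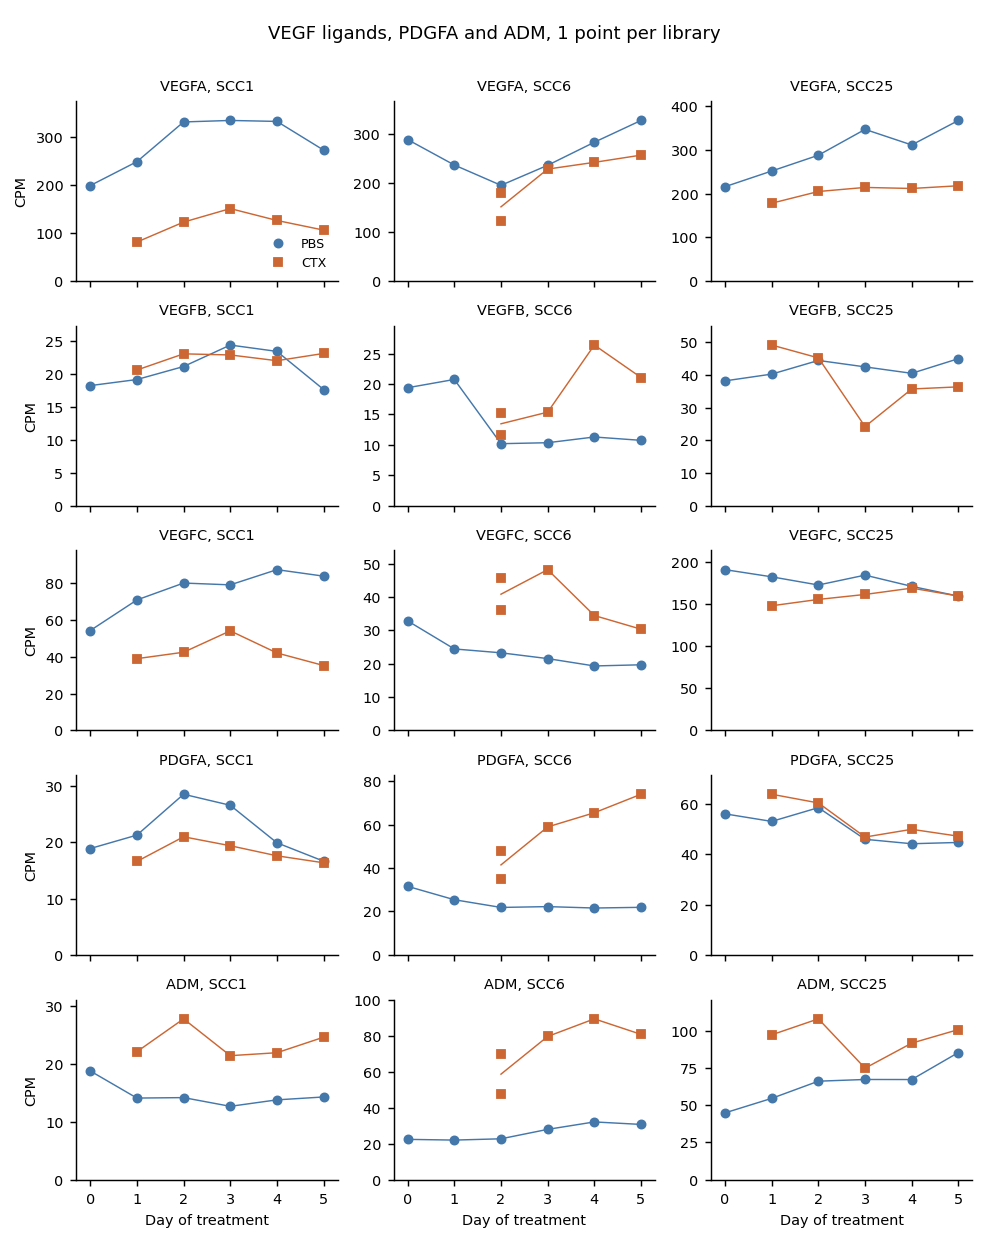
CPM (y axis) by day of treatment (x axis) of VEGFA, VEGFB, VEGFC, PDGFA and ADM in the 3 lines, with circles for PBS, squares for cetuximab, 1 point per library and a line through the daily mean; each panel has its own y axis from 0. Cetuximab lies below PBS for VEGFC in SCC1 and above it in SCC6, and PDGFA of SCC6 reaches 74.0 CPM with cetuximab on day 5 against 21.9 CPM with PBS.

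The co-receptors differed from each other. NRP1 (chromosome 10, 33466420 to 33625190, minus strand) fell in SCC1 from 28.5, 42.1, 48.1, 48.9 and 41.1 CPM with PBS to 7.47, 7.86, 7.61, 4.88 and 4.72 CPM with cetuximab, and in SCC6 from 63.9, 70.2, 80.2, 83.0 and 71.9 CPM to 37.4, 46.8, 30.5, 27.3 and 22.7 CPM. Both changes were without overlap, at -2.67 ± 0.18 (adjusted p = 7.82e-07) and -1.18 ± 0.18 (adjusted p = 0.000539) on the log2 scale, and the SCC6 change was -0.996 within flow cell D (adjusted p = 0.000549). In SCC25, where NRP1 was highest, PBS fell from 167 CPM on day 1 to 100.0 CPM on day 5 and cetuximab from 146 to 99.7 CPM, and the treatment difference was not called (-0.15 ± 0.14, adjusted p = 0.471). NRP2 (chromosome 2, 206546714 to 206662857, plus strand) was nearly absent in SCC1, at 0.063 CPM or below in every library, and was not tested there. In SCC25 it held 57.0 to 74.3 CPM with PBS and 47.8 to 58.2 CPM with cetuximab, a fall of 0.33 ± 0.08 (log2; adjusted p = 0.0162) that was not called with flow cell as a covariate (adjusted p = 0.206) or within flow cell A (adjusted p = 0.199). In SCC6, PBS rose from 34.8 to 74.6 CPM over days 1 to 5, and cetuximab held 32.9 to 35.7 CPM in 2a, 2b and 3 and 65.7 and 65.8 CPM on days 4 and 5. The difference was not called (-0.17 ± 0.26, adjusted p = 0.658), and within flow cell D it was -0.71 (adjusted p = 0.0125).

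The next comparison asked whether the treatment change differed between the lines. Of the 9 genes read in the 3-line interaction test, 6 were called, beside 26.1% of all genes: VEGFC (adjusted p = 6.93e-09), NRP1 (6.99e-08), PDGFA (3.34e-06), ANGPTL4 (3.98e-05), ADM (0.000902) and VEGFA (0.00252). Between pairs of lines, 6 of 9 genes were called for SCC6 against SCC1 (19.3% of all genes), 4 of 9 for SCC6 against SCC25 (17.5%) and 4 of 9 for SCC1 against SCC25 (8.52%). NRP2 is among the 9 in each of these tests and was not called. It was near the floor in SCC1, so its comparisons with that line cannot show whether the change differed. The change of VEGFC was 1.76 ± 0.15 higher on the log2 scale in SCC6 than in SCC1, and that of PDGFA 1.63 ± 0.22 higher. NRP1 fell by less in SCC6 than in SCC1, with a difference of 1.51 ± 0.25, and SCC25 differed from both. ANGPTL4 fell by more in SCC1 than in SCC6 (difference 1.72 ± 0.43, adjusted p = 0.00472), and SCC6 and SCC25 were not told apart by the test (-1.18 ± 0.43, adjusted p = 0.0527; 0.0101 without PBS of day 5 in SCC6). ADM rose by more in SCC6 than in SCC1 (0.67 ± 0.19, adjusted p = 0.0136) or SCC25 (0.97 ± 0.19, adjusted p = 0.00059). The fall of VEGFA was deeper in SCC1 than in SCC6 (difference 1.06 ± 0.23, adjusted p = 0.00132) and than in SCC25 (-0.76 ± 0.23, adjusted p = 0.0354), and the latter call was lost on leaving out any one of 12 libraries, with adjusted p up to 0.0812. With flow cell as a covariate, VEGFA (adjusted p = 0.341) and ADM (adjusted p = 0.108) were no longer called in the 3-line test. PGF (adjusted p = 0.0894) and VEGFB (0.148) were not called, and with day as a block both were (0.0166 and 0.0033), as they were without PBS of day 1 in SCC6 (0.0256 and 0.00859).

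Without the drug, the lines had profiles of their own, compared over PBS of days 1 to 5, where 69.1% of all genes differed between SCC6 and SCC1, 72.1% between SCC6 and SCC25 and 68.4% between SCC1 and SCC25. NRP2 was near the floor in SCC1 and passed the filter through the other lines, so its differences from SCC1 are given without a test. Leaving it aside, VEGFB, VEGFC, PGF, NRP1 and ADM were called for SCC6 against SCC1. For SCC1 against SCC25, VEGFB, VEGFC, PDGFA, NRP1, ESM1, ANGPTL4 and ADM were called. Of the genes read for SCC6 against SCC25, 7 of 9 were called. ESM1 was highest in SCC6 (76.0 ± 34.9 SD CPM, n = 5), then SCC1 (11.1 ± 5.66), then SCC25 (0.46 ± 0.14), and SCC1 exceeded SCC25 (log2 difference 4.59 ± 0.50, adjusted p = 3.09e-07). VEGFC ran the other way, at 174 CPM in SCC25, 80.2 in SCC1 and 21.7 in SCC6, with all 3 pairs called, and so did VEGFB at 42.5, 21.1 and 12.7 CPM. NRP1 stood at 132 CPM in SCC25, 73.8 in SCC6 and 41.8 in SCC1, and ADM at 68.04, 27.1 and 13.8 CPM in the same order, with every pair called for both genes. PDGFA was higher in SCC25 (49.3 CPM) than in SCC1 or SCC6 (22.6 CPM each), which were not told apart (0.01 ± 0.13, adjusted p = 0.945). NRP2 was at 64.6 CPM in SCC25 and 52.4 in SCC6, not called (adjusted p = 0.0996; 0.00732 without PBS of day 5 in SCC6), and at 0.0353 CPM in SCC1. ANGPTL4 was lower in SCC25 (5.53 CPM) than in SCC1 (18.2) and SCC6 (13.1), which were not told apart (adjusted p = 0.196), and were without PBS of day 1 in SCC6 (0.0036). VEGFA stood at 313 CPM in SCC25, 305 in SCC1 and 256 in SCC6, with no pair called. SCC6 against SCC25 for VEGFA was close to the threshold (adjusted p = 0.0604), and was called with day as a block (0.0369), without PBS of day 5 in SCC6 (0.0116) or without PBS of day 1 in SCC25 (0.0252). SCC6 against SCC1 (adjusted p = 0.115) was called for VEGFA without PBS of day 5 in SCC6 (0.023). PGF followed SCC25 (3.88 CPM), SCC1 (2.97) and SCC6 (1.56), where the first pair was not called (adjusted p = 0.116; 0.0452 without PBS of day 1 in SCC6). Line, medium and flow cell cannot be told apart in these values.

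Several of the factors drifted with time in culture without the drug, over PBS of days 0 to 5. In SCC6, ESM1 left aside, ANGPTL4, NRP2, VEGFB, VEGFC, PGF, PDGFA and ADM had a slope and VEGFA and NRP1 were not called, beside 32.7% of all genes. ANGPTL4 fell from 31.1, 26.5 and 14.5 CPM on days 0 to 2 to 4.4 CPM on day 5 (slope -0.55 ± 0.05 log2 per day, adjusted p = 0.000291), and NRP2 rose from 28.1 to 74.6 CPM (0.27 ± 0.02 per day, adjusted p = 0.000358). These 2 genes were also called over days 1 to 5 alone and with flow cell as a covariate. ESM1 in SCC6 stayed between 87.4 and 109 CPM to day 3 and then dropped to 53.0 and 27.2 CPM. Its slope was -0.31 ± 0.10 per day, and -0.13 without PBS of day 5. It was -0.62 with flow cell as a covariate and -0.69 within flow cell D. The SCC6 PBS libraries of days 1 to 5 also entered the treatment contrast by which ESM1 was chosen, so this slope is a description without a test. For VEGFB, VEGFC, PGF and PDGFA, which were higher in the pair of libraries on flow cell C, and for ADM, the slope was not called with flow cell as a covariate (adjusted p = 0.171 to 0.782). In SCC25, on a single flow cell, VEGFA rose from 216 to 367 CPM (0.15 ± 0.02 per day, adjusted p = 0.00148) and ADM from 44.8 to 85.3 CPM (0.16 ± 0.02, adjusted p = 0.00096), while NRP1 fell from 183 to 100.0 CPM (-0.17 ± 0.02, adjusted p = 3.78e-05) and NRP2 from 81 to 57.0 CPM (-0.10 ± 0.02, adjusted p = 0.00324). PGF of SCC25 also fell (-0.15 ± 0.04, adjusted p = 0.0312), which was not called without PBS of day 1 (0.0807), 4 (0.0795) or 5 (0.14), and the calls in this line stand beside 10.7% of all genes. In SCC1, edgeR called none of 9, beside 2.49% of all genes, with 3 at an unadjusted p under 0.05 and 3 called by DESeq2. ESM1 was among these 3, at 1.49 CPM on day 0 and 18.5 CPM on day 3 (0.59 ± 0.19 per day, edgeR adjusted p = 0.139, DESeq2 adjusted p = 0.0302). Without PBS of day 5, on flow cell C, edgeR called 4 genes, ESM1, NRP1, VEGFA and VEGFC (adjusted p = 0.016 to 0.0368).

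Whether the treatment difference itself moved with the day was tested as an interaction. In SCC6, 5 of 9 genes were called, beside 28.2% of all genes. The difference of ANGPTL4 closed by 0.64 ± 0.11 log2 per day (adjusted p = 0.00555), as PBS fell to the treated level. That of NRP1 widened by -0.35 ± 0.07 per day (adjusted p = 0.00945), and the treated level went from 53.3% (2a) and 66.7% (2b) of PBS to 31.6% on day 5. PDGFA rose further by 0.33 ± 0.07 per day (adjusted p = 0.0119). VEGFB (0.48 ± 0.14) and PGF (0.47 ± 0.15) were the others (adjusted p = 0.0244 and 0.0396). In SCC6 the day runs with the flow cell, and with flow cell as a covariate none of the 5 was called (adjusted p = 0.46 to 0.921). Without PBS of day 1, ANGPTL4 was the single gene called. In SCC1, edgeR called none of 8 genes read, beside 0.617% of all genes, with 3 at an unadjusted p under 0.05 and 1, NRP1, called by DESeq2 (adjusted p = 0.0169). In SCC25 none of 10 was called, beside 0% of all genes in edgeR and 30 genes in DESeq2, with 1 of the 10 at an unadjusted p under 0.05.

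Genes of related lists were read for context, with all genes of a list counted over the genes tested, and the counts stand beside shares over all genes, which for SCC1 were 22.7% higher and 22.1% lower, for SCC6 15.6% higher and 14.6% lower, and for SCC25 8.80% higher and 9.50% lower. Several of the counts lie near those shares. Outputs of the ERK pathway, the arm of EGFR signalling most often read from RNA, were lower with cetuximab for 10 of 12 in SCC1, 11 of 12 in SCC6 and 10 of 12 in SCC25, none higher, with median log2 fold changes of -2.02, -1.76 and -1.07. EGR1, an immediate early transcription factor, went from 229 to 11.4 CPM in SCC6 (adjusted p = 2.97e-06) and from 69.7 to 12.9 CPM in SCC25 (adjusted p = 2.32e-05), and PHLDA1 from 136 to 10.7 CPM in SCC1 (adjusted p = 7.73e-07). HIF target genes other than the members showed no common direction: 5 were higher and 3 lower of 14 in SCC1, 2 and 1 of 12 in SCC6, and 1 and 0 of 14 in SCC25, with medians of -0.00, 0.00 and 0.04. EGLN3, a prolyl hydroxylase that marks HIF for decay, rose in SCC1 from 8.21 to 17.0 CPM (adjusted p = 0.000107) and BNIP3, a mitophagy receptor, fell there from 98.8 to 62.1 CPM (adjusted p = 0.000202), while LOX, which crosslinks collagen, rose in SCC6 from 16.8 to 45.9 CPM (adjusted p = 0.000864). PPAR target genes likewise gave 4 higher and 2 lower of 7 in SCC1, 1 and 1 of 7 in SCC6 and 1 and 0 of 7 in SCC25. PLIN2, which coats lipid droplets, fell in SCC6 from 27.96 to 12.7 CPM (adjusted p = 0.000296), and CD36, a fatty acid transporter, rose in SCC25 from 28.2 to 62.4 CPM (adjusted p = 0.000892).

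Other angiogenic ligands were lower for 8 of 10 and higher for none in SCC1 (median -0.81), against 3 lower and 5 higher of 9 in SCC6 (median 0.45) and 3 lower and 1 higher of 9 in SCC25 (median -0.07). CXCL8, a chemokine that draws neutrophils and endothelial cells, fell from 137 to 20.4 CPM in SCC1 (log2 fold change -2.73 ± 0.37, adjusted p = 8.72e-05) and from 373 to 158 CPM in SCC6 (-1.26 ± 0.40, adjusted p = 0.0313). EDN1, endothelin, rose from 24.7 to 58.2 CPM in SCC6 (adjusted p = 0.000963) and from 27.0 to 53.6 CPM in SCC25 (adjusted p = 5.85e-05). JAG1, a Notch ligand, fell in SCC25 from 403 to 277 CPM (adjusted p = 0.000221). Inhibitors of vessel growth were higher for 4 of 9 and lower for 1 in SCC1, 6 and 1 of 10 in SCC6, and 0 and 1 of 9 in SCC25. THBS1, thrombospondin, rose from 1138 to 3982 CPM in SCC6 (1.79 ± 0.25, adjusted p = 0.000334), and SEMA3E, a repulsive semaphorin, from 2.00 to 13.2 CPM in SCC1 (2.74 ± 0.16, adjusted p = 4.26e-07).

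Partners and receptors of the members were partly present in the tumour cells. PDGF ligands and receptors other than PDGFA were higher for 2 of 4 in SCC1, 3 of 5 in SCC6 and 1 of 5 in SCC25, with none lower. PDGFB rose in SCC6 from 28.5 to 96.8 CPM (adjusted p = 0.00073), and PDGFC rose in each line, with log2 fold changes of 0.32, 1.05 and 0.42 (adjusted p = 0.0187, 0.000254 and 0.00185). Of the neuropilin partners, class 3 semaphorins and plexins, 4 rose and 3 fell of 10 in SCC1, 4 rose and 1 fell of 11 in SCC6, and 1 of 11 fell in SCC25. SEMA3A, a ligand of NRP1, fell in SCC1 from 16.6 to 3.78 CPM (-2.13 ± 0.27, adjusted p = 5.02e-05) and in SCC6 from 144 to 51.9 CPM (-1.50 ± 0.18, adjusted p = 0.000123). PLXND1 rose in SCC6 from 27.6 to 92.0 CPM (adjusted p = 0.00181). VEGF receptors with VEGFD gave 1 call, a fall of FLT1 in SCC1 from 1.08 to 0.50 CPM, chosen here after its value was seen. In the adrenomedullin axis 1 gene rose and 1 fell of 5 in SCC1, the receptor CALCRL (from 2.13 to 3.67 CPM) and its partner RAMP2 (from 1.53 to 0.22 CPM), both named after their values were seen; 1 rose of 2 in SCC6 (ADM2, from 10.2 to 28.9 CPM, adjusted p = 0.00842), and none of 3 was called in SCC25. Angiopoietins and their relatives were mostly too low to test, with 2 of 2 lower in SCC1, 0 of 1 called in SCC6, and 1 higher and 2 lower of 5 in SCC25. The SCC1 pair were ANGPT2 and the receptor TIE1, the latter going from 3.76 to 0.11 CPM, again named after their values were seen. With flow cell as a covariate, the PDGF list of SCC1 and the angiopoietin list of SCC25 had 0 calls, the HIF target genes had 3 higher and 3 lower in SCC1, 2 and 3 in SCC6 and 0 in SCC25, and the PPAR target genes of SCC1 had 2 higher and 1 lower. The angiogenesis inhibitors had 2 higher and 0 lower in SCC1 and 3 and 0 in SCC25 in that fit, the other ligands of SCC25 1 and 1, and the neuropilin partners 2 higher and 2 lower in SCC1, 7 higher and 1 lower in SCC6, and 2 lower in SCC25.

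**Figure D4:**
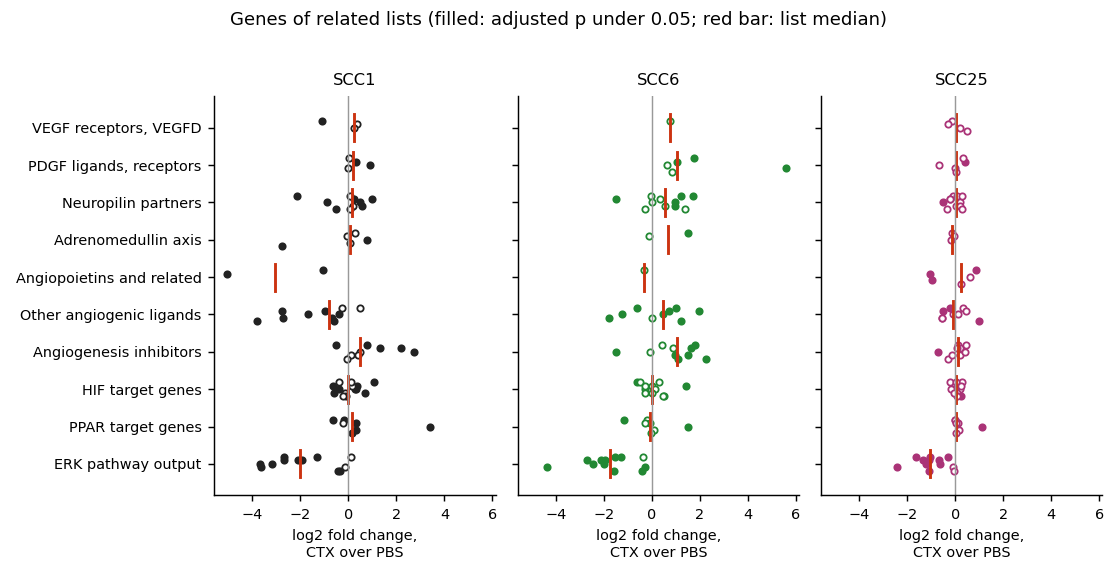
Log2 fold change of cetuximab over PBS (x axis) for the genes of 10 related lists (y axis) in the 3 lines, 1 point per gene tested, filled where the adjusted p was under 0.05, with a red bar at the list's median. All ERK pathway output genes except ETV5 in SCC1 (0.11, open) lie left of 0, with medians of -2.02, -1.76 and -1.07, while the HIF and PPAR target genes spread around 0.

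The genes whose levels followed ESM1 most closely, by Pearson's r of log2(CPM + 0.5) over the 33 libraries after the mean of each line was removed, were PTPN12 (r = 0.965), PRDM1 (0.962), PNP (0.958), MLKL (0.955) and FAM83A-AS1 (0.953). For VEGFA they were RP1-261G23.7 (0.919), EPHA2 (0.914), ITPRIP (0.908), SMOX (0.899) and TRIB1 (0.899). The libraries share treatment, line and flow cell, and these values are a description over 13201 genes. Without centring by line, none of the 5 genes was again among the first 5 for ESM1, and 2 of the 5 were for VEGFA.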

How the data were processed

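RNA was read from 33 libraries of cultured HNSCC lines by paired-end sequencing of poly-A RNA with a stranded kit. The authors deposited estimated counts per gene symbol from Salmon, summed with tximport. The submitters' processing notes name Salmon 0.8.2 and hg19 (GRCh37), and the annotation release is not given in the sources used here. As deposited, 63.2% of the values were exactly whole numbers, and all were rounded. Groups came from the sample labels. Each comparison used edgeR 4.0.16 (R 4.3.3), the quasi-likelihood F test with TMM scaling and the default expression filter, with Benjamini-Hochberg adjustment over all genes tested and a threshold of 0.05. Line differences and slopes per day were terms of the same kind of model. The scripts were tested on simulated data.

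The genes, the lists and the tests were chosen with earlier results of these data known. List genes are named by a rule: in each line, the called gene that rose most and the one that fell most, with mean log2 CPM from 3 up, and a gene so named in one line may be given in another. Alternatives were DESeq2 1.42.0, its size factors, no filter, a flow cell term, a block for the day, PBS extended by day 0, each library left out, and, added after the data were seen, fits within a flow cell. The labels give treated and untreated libraries the same day. Deviations of same-day libraries from their group means correlated at 0.111 to 0.378 in SCC1 and 0.222 to 0.59 in SCC25, and in SCC6 at 0.533 to 0.593 for 2a, 2b and 3 but -0.185 and -0.00751 for days 4 and 5.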

Additional observations from a re-analysis of the deposited data

Results flagged for a closer look

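Among 60 groups of 5 libraries tested, 3 held a library far from the others, where chance flags about 1 in 20 groups. In SCC6, PBS of day 1 was high for VEGFB (20.7 CPM, the next at 11.3; gap over range 0.896) and for PDGFA (25.4 CPM, the next at 22.3; 0.831). For NRP2 in SCC1 the cetuximab library of day 5 held 0 against 0.0225 CPM in the nearest (0.894), a gene close to the floor in that line.

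The treatment change differed between the 3 lines for VEGFC (edgeR adjusted p = 6.93e-09), NRP1 (6.99e-08), PDGFA (3.34e-06), ANGPTL4 (3.98e-05), ADM (0.000902) and VEGFA (0.00252). With flow cell as a covariate ADM (0.108) and VEGFA (0.341) were not called.

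In SCC6 the treatment change differed with the day for ANGPTL4 (adjusted p = 0.00555), NRP1 (0.00945), PDGFA (0.0119), VEGFB (0.0244) and PGF (0.0396), and with flow cell as a covariate the adjusted p of these genes ranged from 0.46 to 0.921.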

How the results depend on the processing

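Of 2703 recomputed values for single genes, 2560 were counted as the same, 80 lost the call, 60 gained it and 3 reversed. Most of them, 1954, were fits with 1 library left out, of which 1880 were the same. With flow cell as a covariate 76 of 101 were the same, 15 lost the call, 8 gained it and 2 reversed. Within flow cell D 12 of 20 were the same. Values uncalled in both fits count as the same. A change of sign counted as a reversal only where the main or the alternative fit was called. Changes of sign between uncalled fits stand among the same, such as PDGFA in SCC1 with flow cell as a covariate (-0.30 to 0.14). The ESM1 treatment values of SCC6 were scored by direction and size alone, without a threshold on p. No treatment call of a gene read within a line was lost on leaving out any one library. With flow cell as a covariate, the calls went from 6 to 3 for treatment in SCC25, from 8 to 3 for the PBS slopes of SCC6 and from 5 to 0 for treatment by day in SCC6, and rose from 0 to 4 for the PBS slopes of SCC1 and from 0 to 1 for treatment by day in SCC1. DESeq2 gave 3 and 1 for these last comparisons. Leaving out 1 library gave 0 to 4 (SCC1) and 2 to 8 (SCC6) PBS slopes and 0 to 1 (SCC1) and 1 to 5 (SCC6) genes for treatment by day. PBS of days 1 to 5 alone gave 2 slopes in SCC6, and flow cell D alone 4. The counts here for SCC25 treatment and for SCC6 PBS slopes include ESM1 where its fit was called, although no test of it is given there. VEGFB reversed in SCC6, its PBS slope to 0.0437 with flow cell as a covariate and 0.0323 within flow cell D, and its treatment by day to -0.0839 with the covariate. For these changes the cause was not tested. No flow cell term was possible for the PBS slopes of SCC25, all on 1 flow cell.

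With day as a replicate block no call was lost: PDGFA was gained in SCC1 (-0.28, adjusted p = 0.0175), VEGFB in SCC6 (0.75, adjusted p = 0.00539), and the 3-line test called 8 genes in place of 6. Of the 5 genes closest to ESM1, 2 were again among the first 5 with a pseudocount of 0.1 and 0 without centring. Over all genes, the calls went from 8061 to 4197 in SCC1 and from 3496 to 1417 in SCC25 with flow cell as a covariate (3523 within flow cell C and 1899 within A), and from 5238 to 7961 in SCC6 with the block. ESM1 in SCC25 rests on 6 to 29 counts per library, and its depth limits the precision of the fold change there.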
